A study of Mus musculus with 8 samples.

Results

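The circadian clock genes described here are 3 activators, Arntl (also called Bmal1), Clock and Npas2, and 4 factors of the basic leucine zipper class, Dbp, Tef, Hlf and Nfil3. Their transcripts were read on arrays from the sorted skin fibroblasts of 8 mice. All array probe sets annotated to exactly 1 of these genes were taken, which gave 14 of the 45141 probe sets and 7 of 17097 genes. The genes were chosen by their role in the clock and selected on earlier results of the same samples, which gave the treatment differences of Dbp and Hlf among other clock genes. The differences between groups and the relation between activators and outputs are therefore given as descriptions, and the p-values printed beside them support nothing.

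From 12 months of age, the back skin of 4 mice received 150 nmol of GW9662, which blocks the nuclear receptor PPARG irreversibly, in 300 µl of acetone 3 times a week over 6 months. The other 4 mice received acetone alone, so both groups share the solvent, the handling and the age. Strain and sex, and the time of day of collection, are not given in the sources used here. The cells came from dermis freed of subdermis and digested with collagenase. The sort kept cells with Pdgfra and CD34 and dropped those with CD45, CD117, CD24, CD31 or EpCam, and RNA of 5000 cells was amplified over 21 cycles. Mice were collected in pairs, 1 from either group per day, and samples of the same number are read as such a pair.

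As background, CLOCK or its paralogue NPAS2 pairs with BMAL1, the product of Arntl, and the dimer binds E-boxes in the promoters of its targets. Among these targets are the PERIOD and CRYPTOCHROME repressors, which shut the dimer off, the REV-ERB repressors, which act on Arntl, Npas2 and Nfil3 through ROR response elements, and the proline and acidic amino acid-rich (PAR) bZIP factors DBP, TEF and HLF. The PAR bZIP factors activate genes through D-boxes, and NFIL3 represses through the same element. In most mouse tissues, skin included, transcripts of Arntl and Npas2 peak at the opposite time of day from those of Dbp, Tef and the Per genes.

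The binding elements of this loop were looked for in the RefSeq promoter windows of build GRCm38.p6, from 250 bases before to 50 after each annotated start. The 7 genes had 11 windows. The E-box CACGTG, read on both strands, was found in 2 of them, both of Tef, against 7.15% of all 32851 windows. The stretches around it are shown because Tef is the output gene with a match, with the E-box in capitals. Both lie on the plus strand, at chr15:81802526-81802571 and chr15:81811256-81811301, with the first base of the E-box at -127 and -138 from the respective start.
Tef first start: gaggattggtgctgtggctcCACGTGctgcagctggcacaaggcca
Tef second start: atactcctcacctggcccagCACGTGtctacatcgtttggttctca

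The ROR response element was found in 1 of the 11 windows, of Arntl, against 0.384% of all windows. It begins at base 27 of the transcript from the second annotated start, inside chr7:113207528-113207557 on the plus strand, and is shown in capitals as the element through which output of the loop returns to Arntl.
Arntl second start: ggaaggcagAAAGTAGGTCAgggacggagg

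The D-box, searched as TTATGTAA or TTACGTAA on both strands, was in none of the 11 windows and in 1.06% of all windows. In the other clock genes of the lists used below, it was found in Timeless and, as a pair of copies, in Per3, a repressor of the clock. The Per3 stretch, on the minus strand at chr4:151044796-151044890, is shown as an example of the element that the PAR bZIP factors and NFIL3 share, with the D-boxes in capitals. No match in a window of this length says only that these letters are not there.
Per3: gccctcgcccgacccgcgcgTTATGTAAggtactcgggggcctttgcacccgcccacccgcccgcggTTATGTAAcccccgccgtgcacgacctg

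In GRCm38.p6, Arntl lies at chr7:113178471-113314126, Clock at chr5:76209868-76305603 and Npas2 at chr1:39193702-39363240. Dbp lies at chr7:45705100-45710203, Tef at chr15:81802673-81826863, Hlf at chr11:90336535-90390917 and Nfil3 at chr13:52967209-52982878.

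The deposited values are log2 signal intensities, and the number of arrays, 1 per animal and 4 per group, limits their precision. Sample medians lay between 4.63 and 4.69. Vehicle 4 stood apart on the first principal component of all genes (22.2, against -10.4 to 5.49 in the other 7 samples), so the differences were also computed without it, giving 0.59 for Dbp and -0.76 for Arntl (log2). That component had an r of 0.03 with Dbp and -0.37 with Arntl. The mean of the 7 fibroblast markers lay between 10.2 and 10.37 in the GW9662 group and between 10.05 and 10.36 in vehicle. Among them Pdgfra, on which the cells were sorted, was at 4.63 to 5.13, far below that mean. The means of the immune, endothelial, epithelial, melanocyte, adipocyte and mural marker lists lay between 3.98 and 5.05 in all samples and overlapped between the groups. Single genes of these lists lay higher, such as Kdr (6.72 to 8.58), Cd79a (6.70 to 7.29) and Krt10 (6.66 to 7.15). Mlana was at 6.30 in GW9662 1 and at most 5.27 in the other samples. Of those lists, 34 of 36 genes had values, and without detection calls none was called absent. Their part in the results below was not tested. In sorted bulk samples, a change in the share of cells of a type and a change of RNA per cell cannot be told apart.

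In the group means, Arntl, Npas2, Nfil3 (-0.15) and Clock (-0.10) were lower and Dbp, Tef and Hlf higher after GW9662. In the brightest probe set of each gene, only Arntl and Dbp went 1 way in all 4 pairs. Other probe sets of Arntl, Npas2 and Tef differed in this, as given below. Clock and Nfil3 were each higher in 2 pairs and lower in 2. Npas2 was higher in pair 1, Tef equal in pair 2 and Hlf lower in pair 2. The difference was 0.59 (log2) for Dbp and -0.59 for Arntl, but the groups overlapped for all 7 genes and no gene on the array passed adjustment. In limma, 0 of 7 members had an adjusted p under 0.05, with 0% of all 17097 genes called. At an unadjusted p under 0.05 there was 1 of 7, Dbp, where 3.38% of all genes were called. With the pairs as a replicate block there were 3 of 7, Dbp, Arntl and Tef, where 4.83% of genes were called. Without GW9662 3, without vehicle 2, or without pair 3 or pair 4, the count was 0 of 7, and without GW9662 2 it was 5 of 7. No share over all genes was computed with samples left out. Since the members were chosen with these values known, nothing is read from these counts.

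Arntl encodes BMAL1, the partner that the CLOCK dimer cannot do without. Its log2 signal (probe set 1457740_PM_at) was 5.37, 5.90, 5.38 and 3.93 in GW9662 samples 1 to 4 and 5.50, 6.21, 6.00 and 5.22 in vehicle samples 1 to 4. GW9662 4 was far below the other 7 samples and under the sample medians of 4.63 to 4.69, and the remaining GW9662 values lay within the range of vehicle. Group means were 5.15 ± 0.85 and 5.73 ± 0.45 (SD, n = 4 each), a log2 fold change of -0.59 ± 0.37 (SE, 95% interval -1.42 to 0.24; limma unadjusted p = 0.146, adjusted p = 0.997). Of 17097 fold changes, 0.0117% were as low or lower, and the SD over the 8 samples was at the percentile 99.9 of all genes. The members were chosen with these values known, so nothing is read from these ranks. With the replicate block the SE was 0.17 and limma's unadjusted p 0.00901 (adjusted p = 0.966). Without GW9662 4 the difference was -0.18, and without pair 4 it was -0.35.

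The second Arntl probe set, 1425099_PM_a_at, showed the pattern less. Its values all lay under the sample medians of 4.63 to 4.69, with no detection calls to set them apart from background. They ran from 3.95 to 4.50 in GW9662 and from 4.22 to 4.41 in vehicle, and its lowest sample was again GW9662 4. Its log2 fold change was -0.10 ± 0.11 (SE), and pair 2 went the other way, at 0.24. The mean of both probe sets gave -0.34.

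Clock encodes the usual partner of BMAL1 and is known to cycle little in most tissues. Its log2 signal was 6.47, 6.35, 6.42 and 6.38 after GW9662 and 6.68, 6.74, 6.35 and 6.24 in vehicle, so GW9662 samples lay inside the vehicle range. The log2 fold change was -0.10 ± 0.11 (SE, 95% interval -0.34 to 0.14; limma adjusted p = 0.997), with 2 pairs higher and 2 lower. It ranged from -0.19 without vehicle 4 to -0.02 without vehicle 2 and 0 without pair 2, with -0.04 without vehicle 1 and -0.15 without vehicle 3. Averaging its probe sets gave -0.03. The other 3 probe sets of Clock differed by -0.05 to 0.06.

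Npas2 encodes a paralogue of CLOCK that takes its place in the dimer. Values were 7.27, 7.45, 7.0 and 7.11 after GW9662 and 7.22, 7.57, 7.44 and 7.34 in vehicle. GW9662 3 and 4 were the lowest of all 8 samples, and GW9662 1 and 2 lay within the vehicle range. The log2 fold change was -0.19 ± 0.11 (SE, 95% interval -0.42 to 0.05; limma adjusted p = 0.997), and 3 of 4 pairs were lower. Without GW9662 3 it was -0.12, and without pair 3 it was -0.10. The other probe set, 1421037_PM_at, was lower in all 4 pairs, at -0.28 ± 0.18 (SE).

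**Figure D1:**
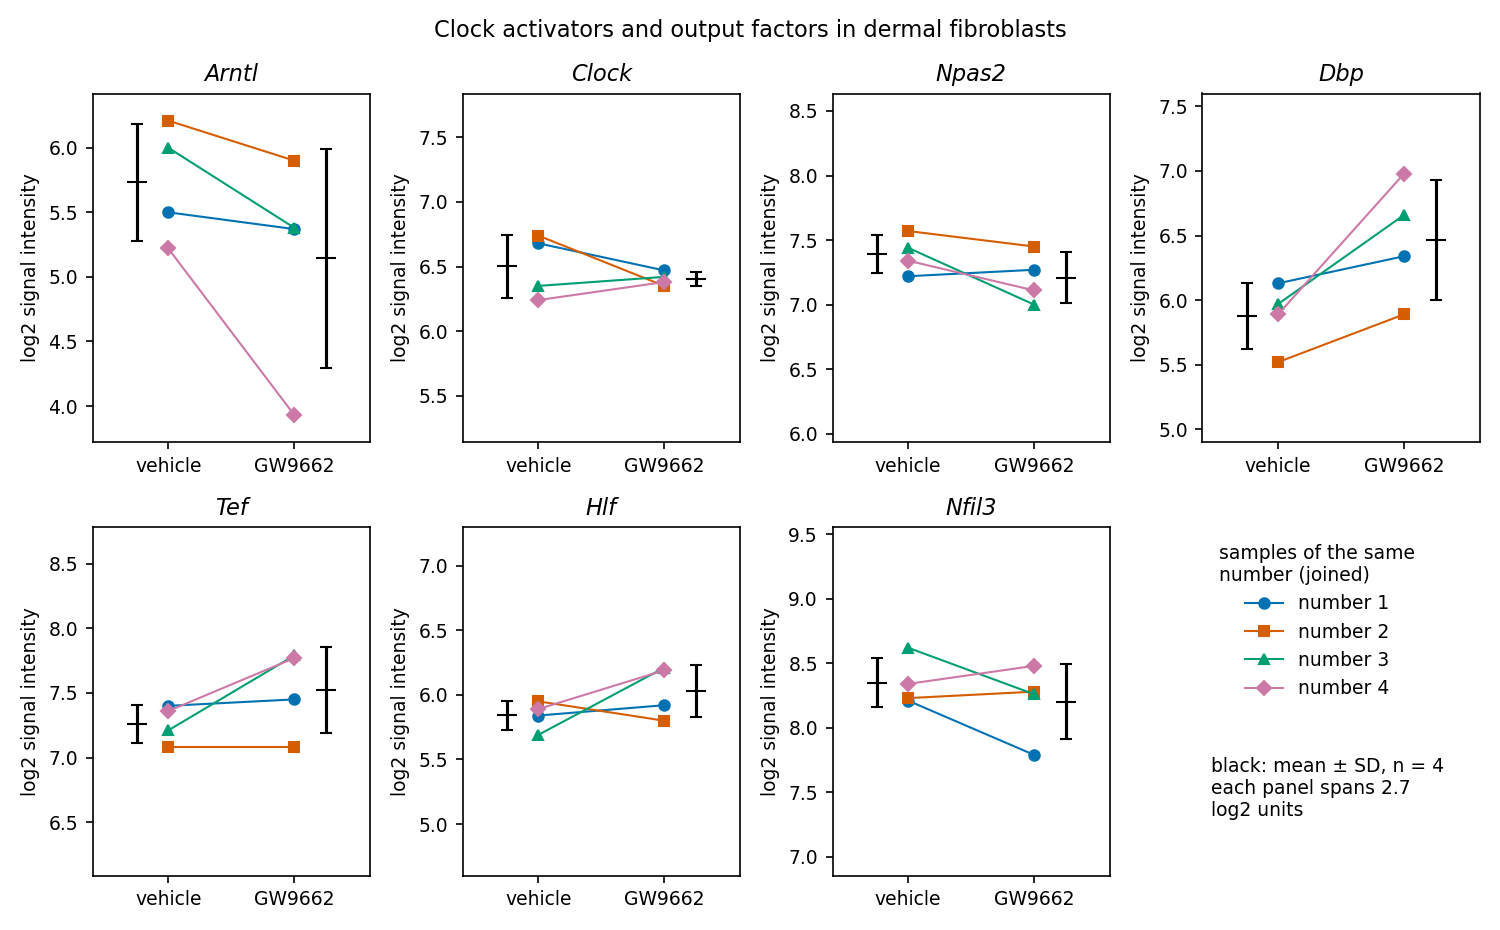
Log2 signal intensity (y axis) of the 7 genes in vehicle and GW9662 samples (x axis), with samples of the same number joined and black bars for the mean ± SD (n = 4). In pair 4, Arntl was at 5.22 in vehicle and 3.93 in GW9662, and Dbp at 5.89 and 6.98, while the 4 GW9662 values of Clock lay between 6.35 and 6.47.

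Dbp, the founding PAR bZIP factor and a direct target of the BMAL1 dimer, had the largest difference of the outputs. It measured 6.34, 5.89, 6.66 and 6.98 in GW9662 samples 1 to 4 and 6.13, 5.52, 5.97 and 5.89 in vehicle. The 3 highest samples were all from GW9662, and GW9662 2 overlapped with vehicle. Means were 6.47 ± 0.47 and 5.88 ± 0.26 (SD, n = 4 each), a log2 fold change of 0.59 ± 0.21 (SE, 95% interval 0.12 to 1.06; limma unadjusted p = 0.0185, adjusted p = 0.997). On the array, 13 genes, Dbp included, had a fold change of at least this size in either direction. Dbp was chosen with its difference known, so nothing is read from this rank. With the replicate block the SE was 0.13 and limma's unadjusted p 0.00257 (adjusted p = 0.966). It was 0.42 without GW9662 4 and 0.78 without GW9662 2.

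Tef, the PAR bZIP factor with the E-boxes shown above, measured 7.45, 7.08, 7.79 and 7.77 after GW9662 and 7.40, 7.08, 7.21 and 7.36 in vehicle. GW9662 3 and 4 were above all other samples, whereas numbers 1 and 2 differed from their partners by 0.05 and 0. The log2 fold change was 0.26 ± 0.15 (SE, 95% interval -0.07 to 0.59; limma unadjusted p = 0.111, or 0.0406 with the replicate block, and adjusted p = 0.997 and 0.966). It was 0.17 without GW9662 3, 0.15 without pair 3 and 0.41 without GW9662 2. The other Tef probe set, 1450184_PM_s_at, was higher in all 4 pairs, by 0.05, 0.26, 0.46 and 1.14. Its fold change was 0.48 ± 0.20 (SE).

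Hlf, the third PAR bZIP factor, measured 5.92, 5.80, 6.21 and 6.19 after GW9662 and 5.84, 5.95, 5.69 and 5.89 in vehicle. Again GW9662 3 and 4 were the highest samples. The log2 fold change was 0.19 ± 0.10 (SE, 95% interval -0.04 to 0.42; limma adjusted p = 0.997), with pair 2 at -0.15. It was 0.08 without pair 3 and 0.30 without pair 2. Its other probe set gave 0.16 ± 0.11 (SE).

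Nfil3, the repressor at D-boxes, measured 7.79, 8.28, 8.26 and 8.48 after GW9662 and 8.21, 8.23, 8.62 and 8.34 in vehicle. GW9662 1 was the lowest and vehicle 3 the highest sample, and the groups overlapped. The log2 fold change was -0.15 ± 0.14 (SE, 95% interval -0.47 to 0.17; limma adjusted p = 0.997), with 2 pairs higher and 2 lower. It was -0.01 without GW9662 1, -0.06 without vehicle 3 and -0.24 without GW9662 4.

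Over all 14 probe sets, 2 had an unadjusted p under 0.05 in limma, those of Dbp and the second Tef set, where 3.55% of the 45141 probe sets were called. None had groups that did not overlap, against 1.90% of probe sets and 1.75% of genes.

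**Figure D2:**
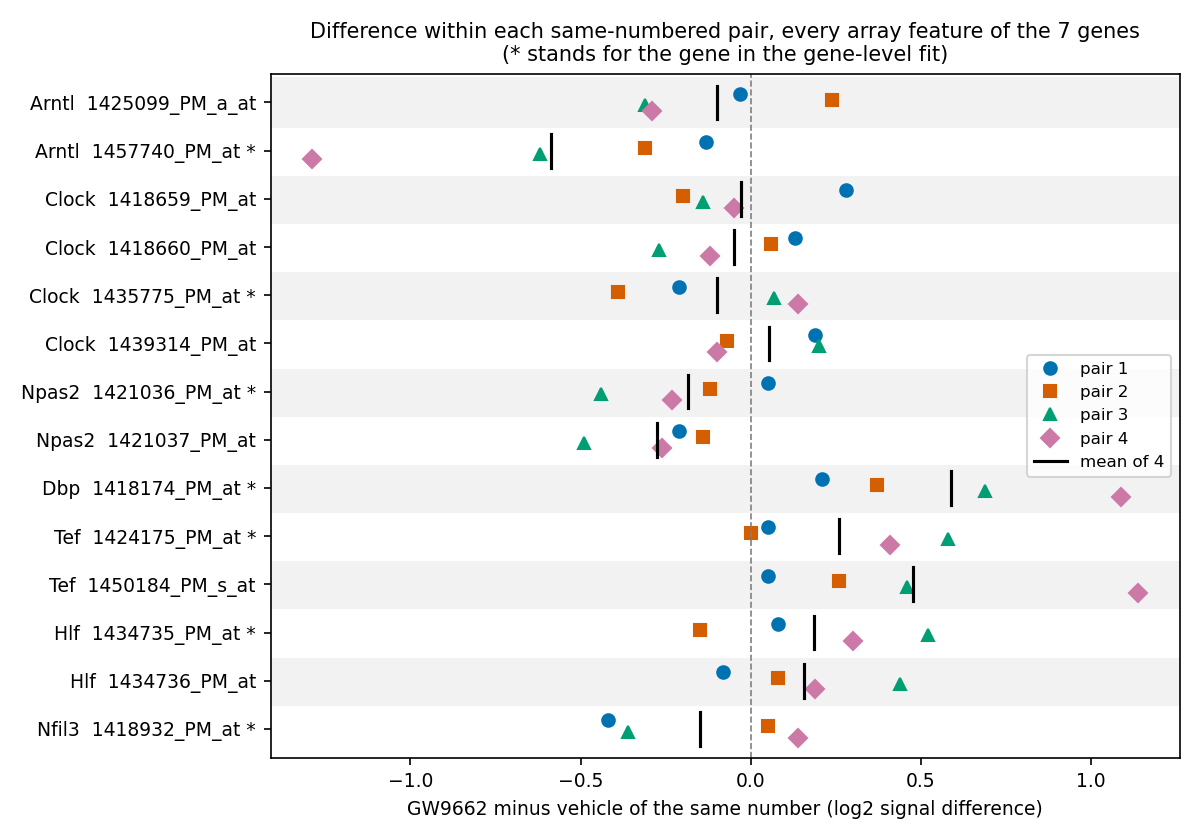
GW9662 minus vehicle difference in log2 signal (x axis) within each same-numbered pair, for the 14 probe sets (y axis), with the mean of the 4 pairs as a black line. The Dbp points run from 0.21 to 1.09 and those of the brighter Arntl probe set from -0.13 to -1.29, with pair 4 farthest from 0 in both.

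The size of the change differed between pairs and did so in opposite directions for Arntl and Dbp. Arntl differed by -0.13, -0.31, -0.62 and -1.29 in pairs 1 to 4, and Dbp by 0.21, 0.37, 0.69 and 1.09. The pair with the larger drop in the brighter Arntl probe set, used here, thus had the larger gain in Dbp in each case. The other Arntl set differed by -0.03, 0.24, -0.31 and -0.29 in pairs 1 to 4, and there this order did not hold. Npas2 differed by 0.05, -0.12, -0.44 and -0.23, and Hlf by 0.08, -0.15, 0.52 and 0.30. In both genes pairs 3 and 4 were the farthest from 0 in the direction of the mean.

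A simple index was formed per sample as the mean of the 3 activators minus the mean of Dbp, Tef and Hlf, each gene centred on its own mean over the 8 samples. The index was -0.10, 0.41, -0.52 and -1.07 in GW9662 samples 1 to 4 and 0.11, 0.76, 0.41 and -0.01 in vehicle. GW9662 2 lay within the vehicle range and the other 3 below it. The group means were -0.32 ± 0.63 and 0.32 ± 0.34 (SD, n = 4 each), and the index was lower after GW9662 in 4 of 4 pairs, with differences of -0.21, -0.35, -0.93 and -1.06. Without GW9662 4 the difference of the means went from -0.64 to -0.39. The genes were not scaled, so Arntl and Dbp, with SDs over the 8 samples of 0.70 and 0.47, weighed most. The SDs of Clock, Npas2, Tef and Hlf were 0.17 to 0.28. Since Arntl and Dbp already went 1 way in all 4 pairs, nothing further is read from the direction of the index. Which time of day each sample was taken, and so its place on the cycle, was not tested.

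Over the 8 samples, activators and outputs ran against each other, with Clock as the exception. The correlations below are descriptions across 8 arrays that share days in pairs, with no p, and the family holds 21 gene pairs. Of the 9 activator and output pairs, 8 had a negative r, and no share over all gene pairs was computed. On deviations from group means, the r values of the 9 ran from -0.95 (Npas2 and Tef) to 0.23 (Clock and Hlf). Deviations from pair means hold only the GW9662 minus vehicle differences given above, so nothing further is read from the signs there. On them, 6 were negative, and the 3 positive ones were those of Clock. The rho values of Clock with the outputs were positive too, at 0.07, 0.10 and 0.40. Arntl and Dbp had r = -0.84 and rho = -0.65. This fell in size to r = -0.43 without the 2 samples farthest from the median of Arntl, GW9662 4 and vehicle 2, so much of the relation rests on them. On deviations from group means, r was -0.82. On deviations from pair means, r was -0.99, from 4 independent differences. Its sign there was set beforehand, since Arntl was lower and Dbp higher in all 4 pairs.

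Npas2 gave the steadier relation. Its r was -0.96 (rho -0.97) with Tef and -0.90 (rho -0.91) with Dbp, and without its 2 farthest samples, GW9662 3 and vehicle 2, the r values were -0.95 and -0.86. Npas2 and Hlf had r = -0.73 (rho -0.55), and Arntl had r = -0.79 (rho -0.72) with Tef and -0.65 (rho -0.43) with Hlf. Clock had r between -0.28 and 0.02 with the 3 outputs.

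**Figure D3:**
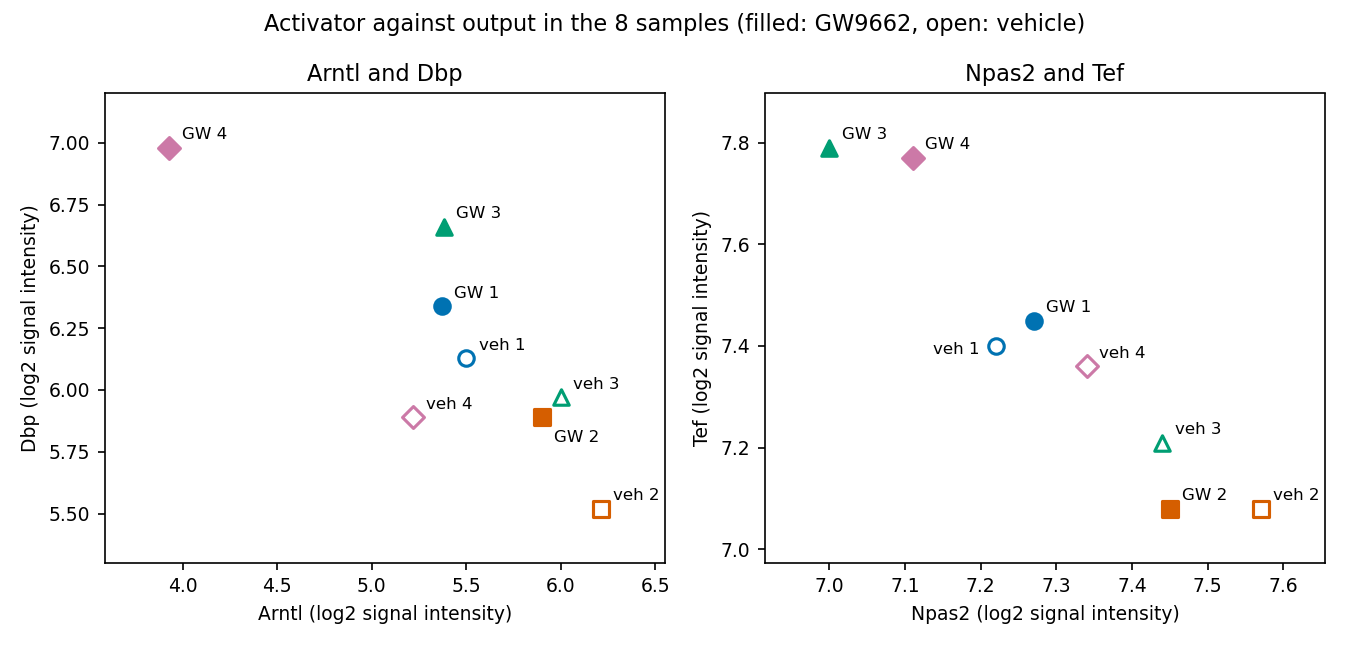
Log2 signal of Dbp against Arntl (left) and of Tef against Npas2 (right) in the 8 samples, with filled symbols for GW9662 and open ones for vehicle, and 1 symbol shape per pair number. GW9662 4 lies alone at an Arntl of 3.93 and a Dbp of 6.98, whereas Tef falls along Npas2 over all samples (r = -0.96).

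Within each class, the PAR bZIP factors moved together. Dbp and Tef had r = 0.93 (rho 0.92), Tef and Hlf 0.82 (rho 0.65) and Dbp and Hlf 0.72 (rho 0.48). Without GW9662 3 and 4, the 2 samples farthest from the median of Dbp and of Tef, the 3 values were 0.81, 0.19 and -0.15, so both relations of Hlf rest on those samples. Arntl and Npas2 had r = 0.70 (rho 0.69), or 0.62 without the 2 farthest samples. Nfil3 had r between -0.35 and 0.08 with the activators and between -0.09 and 0.02 with the outputs, but these values were unsteady. Clock and Nfil3 had a rho of -0.75. Without the 2 farthest samples of the other gene, r was 0.55 with Arntl, -0.57 with Clock, 0.17 with Npas2, and -0.48, -0.48 and -0.72 with Dbp, Tef and Hlf. Within pairs, r with the outputs lay between -0.52 and -0.21.

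The share of the spread that lay between same-numbered pairs varied among the genes. Of the spread around the group means, 85.9% lay between pairs for Arntl, 73.4% for Dbp, 70.3% for Tef, 66.8% for Nfil3, 65.2% for Npas2, 51.5% for Clock and 22.3% for Hlf. The median over all genes was 55.8%, and Arntl was at the percentile 89.0. Whether the day of collection has a part in this was not tested. In either group, sample 2 had the highest Arntl and the lowest Dbp, with Arntl at 5.90 and 6.21 and Dbp at 5.89 and 5.52 in GW9662 and vehicle.

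The other genes of the loop, from lists chosen with earlier results of these data known, had values for 25 of 30 genes. Of these, 21 were higher and 4 lower after GW9662, with a median log2 fold change of 0.07. The split over all genes was 8054 higher to 9043 lower, and their median was -0.0050. In limma, 1 of the 25 was under 0.05 before adjustment, where 3.38% of all genes were called, and 0 after adjustment over all genes. The 9 measured repressors were all higher by some amount (median 0.12). Because of how the lists were chosen, nothing is read from the counts of these lists. Cry2, a repressor of the BMAL1 dimer, measured 7.11, 6.98, 7.33 and 7.53 after GW9662 and 7.07, 6.74, 7.05 and 6.92 in vehicle, and was higher in 4 of 4 pairs. Its log2 fold change was 0.29 ± 0.12 (SE; limma unadjusted p = 0.0362, adjusted p = 0.997), and 0.20 without GW9662 4 or 0.19 without pair 4.

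The next by p were Cipc, an inhibitor of CLOCK, at 0.13 ± 0.06, Tspan4, a tetraspanin, at 0.21 ± 0.12, Bhlhe41 (DEC2), which competes for E-boxes, at 0.20 ± 0.11, and Wee1, a cell cycle kinase driven by the clock, at 0.25 ± 0.16 (SE). Wee1 was at 0.07 without GW9662 4 and 0.03 without pair 4. Tspan4 was at 0.11 without vehicle 3, Bhlhe41 at 0.30 without GW9662 2 and 0.08 without pair 4, and Cipc at 0.04 when its probe sets were averaged. Per3, with the D-boxes shown above, was at 0.09 ± 0.10 in its brightest probe set, with samples between 6.14 and 6.44 after GW9662 and between 6.00 and 6.39 in vehicle. With samples or pairs left out, that difference ranged from 0.03 (without vehicle 2, GW9662 4 or pair 4) to 0.18 (without pair 1). It was 0.16 without vehicle 1 and 0.13 without GW9662 2, and 0.19 when the Per3 probe sets were averaged. Another of its probe sets, 1460662_PM_at, named after its values were seen, was higher in 4 of 4 pairs at 0.29 ± 0.12 (SE). Of the lists, protein modifiers had 5 of 6 genes higher and 1 lower, clock-driven outputs 3 of 4 higher, the ROR receptors with Arntl2 2 of 3 higher, and PAR bZIP targets (Alas1, Nr1i3 and Pdxk) 2 of 3 higher with a median of 0.01.

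Over all 8 samples, most of the repressors varied with Dbp. An r above 0.8 with Dbp was found in 6 of 9 repressors, Cry2, Per1, Per2, Per3, Nr1d2 and Bhlhe41, and in 0.562% of all 17096 other genes. Cry2, at r = 0.99 (rho 0.99), ranked first of all genes and was at 0.95 without GW9662 3 and 4. Without those samples the other 5 ranged from 0.20 (Nr1d2) to 0.71 (Per3), all below 0.8, so much of their relation to Dbp rests on GW9662 3 and 4. With Arntl, 4 of 9 repressors, Cry2, Per2, Nr1d2 and Bhlhe40, had r below -0.8, against 0.760% of all genes. Without GW9662 4 and vehicle 2 these 4 had r between -0.50 (Nr1d2) and -0.19 (Cry2), so the relation rests largely on those samples. None of the 3 PAR bZIP targets reached either limit. As the lists were chosen with earlier results of these samples known, nothing is read from these counts against the shares of all genes.

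**Figure D4:**
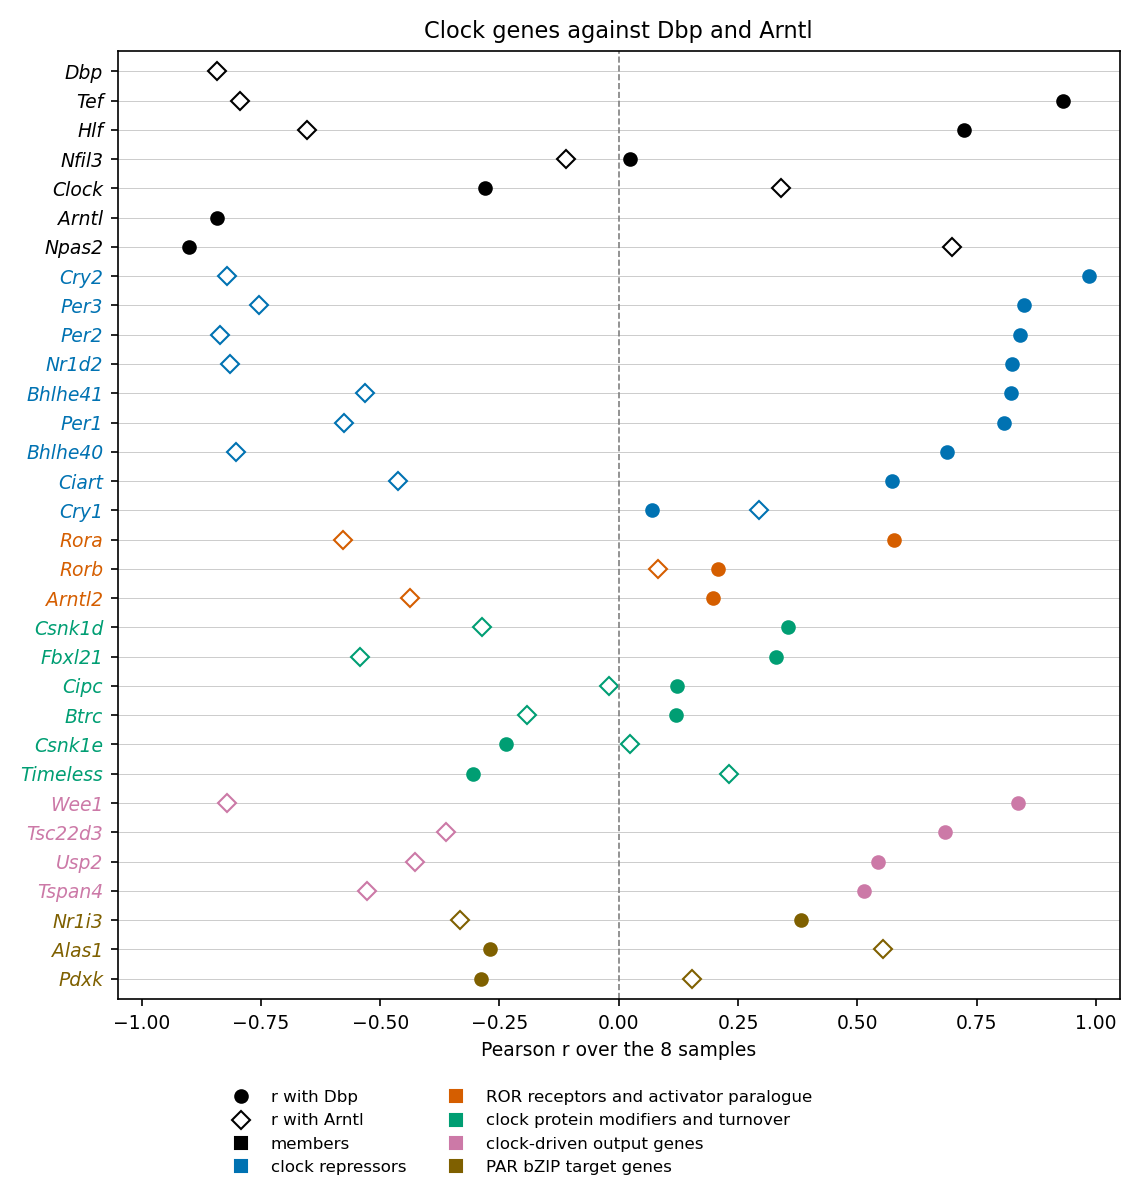
Pearson r over the 8 samples (x axis) of each clock gene (y axis) with Dbp (filled circles) and with Arntl (open diamonds), coloured by list. Cry2 (0.99) and Tef (0.93) lie farthest to the right for Dbp, Npas2 (-0.90) farthest to the left, and Nfil3 (0.02) near 0.

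Among 8252 brighter genes, those with a mean over the median gene, the 5 most like Dbp were Cry2, Xist (r = 0.97), Tef, Rere (0.93) and Drc3 (0.92). The 5 most opposed were Prps2 (-0.97), Gpr108 (-0.96), Shisal1 (-0.93), Kif5a (-0.93) and Phax (-0.92). For Arntl, the most alike were Iars (0.98), Carm1 (0.97), Msrb1 (0.97), Sfxn3 (0.97) and Blcap (0.96), and the most opposed Ephx1 (-0.93), Parp9 (-0.93), Dgat2 (-0.93), Repin1 (-0.91) and Taf5 (-0.89). These are the extremes of 8252 correlations over 8 samples, and nothing on shared function or control is read from them.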

How the data were processed

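Expression was measured in 8 samples, 1 array per animal, from 7.8 µg of labelled cDNA each. The authors deposited log2 values to 2 decimals, made with RMA in affy, per the submitters' processing notes, with versions not given in the sources used here. RMA equalises the arrays and summarises probes. That the logarithm has base 2 was judged from the values' range (2.44 to 13.0).

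Names come from GEO's annotation of the platform, updated by a RefSeq gene table (GRCm38.p6): 28898 had 1 gene, 551 several and 15692 none here. The brightest probe set stood for a gene. The difference of GW9662 from vehicle came from limma 3.58.1 under R 4.3.3, with lmFit and eBayes and no covariate. Tests were two-sided, with Benjamini-Hochberg adjustment over all genes, or over all probe sets, and a threshold of 0.05. The fit was checked on simulated data. Each sample was read as 1 animal. The main fit has no term for the pairs, so its p-values measure the spread between animals of a group, with the spread between pairs included. Deviations from group means correlated at 0.203, 0.163, 0.114 and 0.165 between samples numbered 1 to 4, so numbers were read as pairs, which the design text ties to shared days. At most 3.05% of values were identical between any 2 samples.

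The members and lists were chosen with earlier results of these data known. The named genes were the members, the 5 other clock genes of smallest p, and the 5 genes most and least correlated with Arntl and Dbp. Per3 was added for its sequence. It, the clock genes past an r of 0.8, and the probe sets in the closing section were named after their values were seen. Alternatives were the replicate block, leaving out samples or pairs, other probe set rules, other scaling, array weights, another variance model and a filter on dim genes. The other 5 genes of the clock lists are not analysed here.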

Additional observations from a re-analysis of the deposited data

How the results depend on the processing

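No gene passed adjustment in limma under any of the 19 alternatives. The members' count at an unadjusted p under 0.05 went from 1 to 3 with the replicate block and to 2 when probe sets of a gene were averaged. The cause was not tested. It ranged from 0 to 5 when samples or pairs were left out. It was 5 without GW9662 2, 3 without pair 2, and 0 without GW9662 3, vehicle 2, pair 3 or pair 4. The count of member probe sets went from 2 to 5 with the block. With samples or pairs left out, the probe set count ranged from 0 to 7. It was 7 without GW9662 2, 4 without pair 2, and 1 without GW9662 1 or vehicle 3. It was 0 without GW9662 3, GW9662 4, vehicle 2, pair 3 or pair 4. The share of all genes was computed for the main fit and the block alone, and that of all probe sets for the main fit alone. The members were also chosen with these values known, so nothing is read from these counts. The r of Arntl and Dbp was -0.82 on deviations from group means. It was -0.99 on deviations from pair means, where the pair differences set its sign. It ranged from -0.91 (without GW9662 3) to -0.67 (without GW9662 4) over single samples left out, and reached -0.93 without pair 3. The activator minus output difference ranged from -0.88 to -0.39. No member changed sign, though Clock reached 0 without pair 2. Leaving out vehicle 4 changed neither count. No alternative used detection calls, so dim probe sets were not set apart from background.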

Other observations

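Probe sets of one gene did not always tell the same story in the other clock genes. The brightest Nr1d2 set differed by 0.23 between the groups, and its other set, 1416958_PM_at, by 0.60, with GW9662 values of 5.57, 5.30, 6.41 and 6.86 against 5.41, 5.18, 5.73 and 5.43. The 3 sets of Cipc differed by -0.10, 0.08 and 0.13, so its place among the smallest p depends on the choice of set. Tsc22d3, a glucocorticoid-induced gene with a daily rhythm, had pair differences of -0.81, -0.09, 0.59 and 1.54, with samples between 7.04 and 8.14 after GW9662 and between 6.49 and 7.95 in vehicle.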
